A study of Mus musculus with 12 samples.

Results

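The effect of losing Flt3 ligand was compared between the branches of conventional dendritic cells (cDC) of the mouse spleen. For each gene, the difference between Flt3L KO and WT in cDC1 was subtracted from the same difference in cDC2, so a positive value means that the effect was more positive in cDC2. This contrast used 8 of the 12 arrays of the series, 2 in each of 4 groups chosen by genotype and cell type in the sample labels: cDC1 and cDC2 from WT mice and from Flt3L KO mice. The question it answers is whether removal of the ligand changed expression in cDC2 differently from cDC1. All cells were sorted as mature cDC1 or cDC2 from digested spleens of mice at steady state, and RNA was measured on GeneChip arrays. The WT mice carried neither knockout, and the Flt3L KO mice lacked a working Flt3l gene. The other 4 arrays came from Flt3 KO mice, which lack the receptor, and their values are set beside the contrast where stated. They also entered the model that estimates the spread behind every p-value. The labels give no age, sex or strain background of the mice, nor the number of mice behind an array. The p-values therefore measure the spread between the arrays described as biological replicates.

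Flt3 ligand is a cytokine that binds the receptor tyrosine kinase encoded by Flt3 on dendritic cells and their progenitors, and it supports their development and numbers. cDC1 depend on the transcription factors Irf8 and Batf3 and are known for taking up dying cells and presenting their antigens on MHC class I. cDC2 are more varied, carry Sirpa and use Irf4, and in the spleen include an ESAM-high population that depends on Notch2 and an ESAM-low population with monocyte-like features. Mice without the ligand keep few cDC, and the arrays hold RNA of those that met the sort gates.

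Values are intensities of 1 probe set per gene, compared on the log2 scale with limma, and a gene was called when its adjusted p was under 0.05. Of 19938 genes, the dimmest share of 0.25 was left out and 14953 were tested. The median intensity of an array was 59.0 to 63.0. Precision is set by how few arrays there are. The median standard error (SE) of the contrast was 0.13 on the log2 scale. Replicate 1 of WT cDC1 stood apart, with a lower quartile of 25.7 against 23.3 to 24.3 on the other 11 arrays. The replicates of WT cDC1 also differed more from each other, with a standard deviation of their log2 difference of 0.21 against 0.13 to 0.15 in the other groups.

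The cells matched their labels by the defining markers. The cDC1 marker Xcr1, a chemokine receptor, read 2421 to 2956 on the 4 cDC1 arrays of the contrast and 59.6 to 73.7 on the 4 cDC2 arrays. Sirpa, an inhibitory receptor that marks cDC2, read 3585 to 3751 in cDC2 and 103 to 149 in cDC1. Neither marker had a called contrast, at 0.23 ± 0.15 (SE, adjusted p = 0.481) and -0.36 ± 0.13 (SE, adjusted p = 0.229). Flt3 itself read 2426 and 2456 in Flt3L KO cDC1 against 2333 and 2265 in WT, and 1646 and 1637 in Flt3L KO cDC2 against 1817 and 1742 in WT. It was not called in either cell type, nor was its contrast (-0.20 ± 0.10 (SE), adjusted p = 0.375). On the Flt3 KO arrays Flt3 read 351 to 371. Flt3l had 1 probe set, at 119 and 129 in Flt3L KO cDC1 against 114 and 113 in WT cDC1, and at 109 and 118 in Flt3L KO cDC2 against 145 and 149 in WT cDC2. Its fall in cDC2 was called, at -0.37 ± 0.08 (SE, adjusted p = 0.0267), and its change in cDC1 was not, at 0.13 ± 0.08 (SE, adjusted p = 0.403). The contrast of Flt3l was -0.51 ± 0.11 (SE, adjusted p = 0.0631). No source used here says which part of Flt3l was deleted, and this probe set therefore checks no label.

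With ligand loss C1qa, C1qb, Clec4e, Mertk and Cd36 rose in cDC2 without a called rise in cDC1, and Clec4b2, Fcrla and Dusp6 fell in cDC1 without a called change in cDC2. In the other direction, Cd209a, Cd101 and Abca9 fell in cDC2, while Adam11, Cd69, Il21r and Stat4 rose in cDC1. In all, 74 of 14953 genes had a called contrast, which is 0.495% of those tested. They were 37 positive genes (0.247%) and 37 negative genes (0.247%). At an unadjusted p under 0.05 the counts were 1106 positive and 1114 negative. The positive contrasts ran from 0.59 to 2.34, with a median of 1.08, and the negative ones were 0.55 to 1.58 in size, with a median of 0.76. The median contrast over all genes tested was 0.03.

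The count depended on single arrays. It was 484 without WT cDC1 replicate 2, 20 without WT cDC2 replicate 1, 25 without WT cDC2 replicate 2, 25 without Flt3L KO cDC1 replicate 1 and 34 without Flt3L KO cDC2 replicate 1. Without WT cDC1 replicate 1, the array that stood apart, 64 genes were called. All 74 genes kept their sign in each of the 8 fits that left out 1 array. In every one of those fits 15 genes were called: Clec4e, C1qa, C1qb, Cd36, Ms4a7, Cxcl2, Apoe, P2ry14, Lyz2, Mertk and Vcam1 with a positive contrast, and Abca9, Cd101, Adam11 and Tbc1d30 with a negative one. Apoe and Tbc1d30 are named because they are in this set, after their values were seen.

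The effects in the cell types had opposite signs for 25 of the 37 positive genes and 33 of the 37 negative genes. Selecting genes by the difference between these effects favours opposite signs by itself, and the share over all genes was not counted. Ligand loss changed 291 genes in cDC2 (1.95% of those tested) and 178 in cDC1 (1.19%). A called contrast was found for 43 of the 291 genes (14.8%) and for 26 of the 178 (14.6%). Changes called in both cell types numbered 26, of which 23 went the same way. The remaining 3, Cd36, Plxdc1 and Rgs12, went opposite ways. Among the 37 positive genes, the cDC2 effect was called for 25, the cDC1 effect for 11, both for 1 and neither for 2. Among the 37 negative genes, these counts were 18, 15, 3 and 7. The median effect of the positive genes was 0.76 in cDC2 and -0.37 in cDC1, and that of the negative genes was -0.37 and 0.36. Without single arrays the number of genes called in cDC2 was 72, 72 and 73 (WT cDC2 replicates 1 and 2 and Flt3L KO cDC2 replicate 1) and 164 (Flt3L KO cDC2 replicate 2). In cDC1 it was 89 and 606 without WT cDC1 replicates 1 and 2, and 25 and 68 without Flt3L KO cDC1 replicates 1 and 2.

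**Figure D1:**
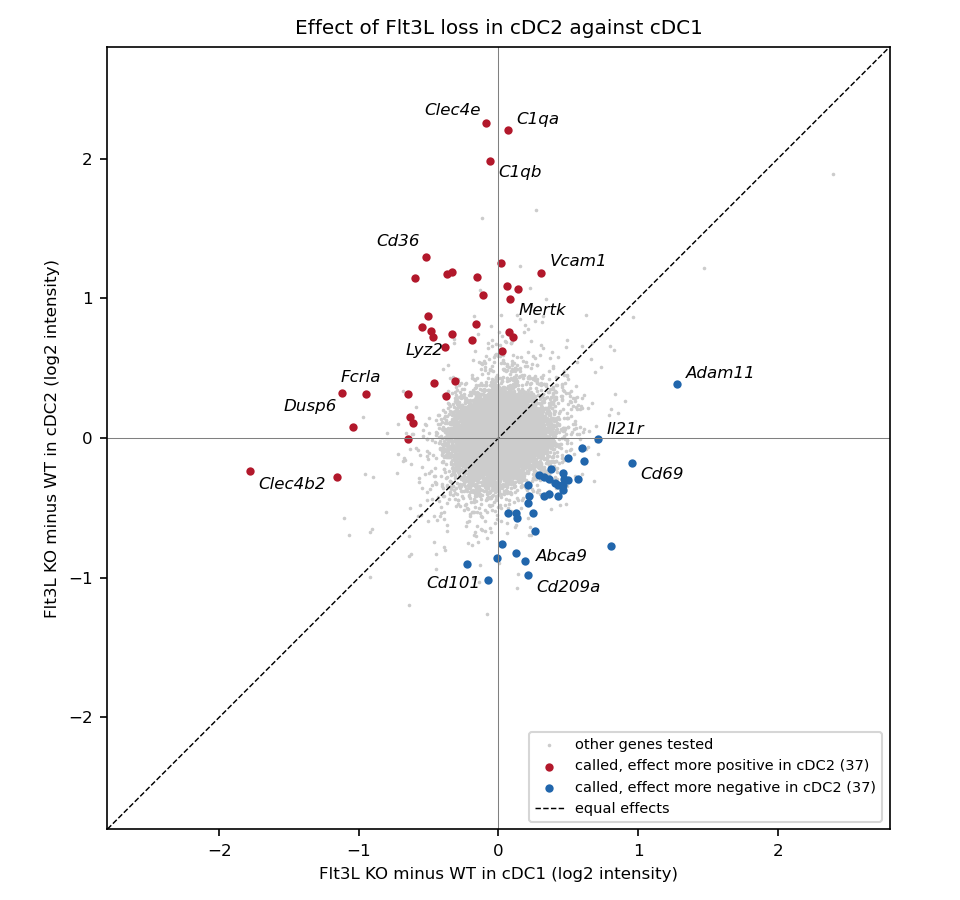
Each point is 1 gene tested, placed by the log2 difference between Flt3L KO and WT in cDC1 (horizontal axis) and in cDC2 (vertical axis); red points are the 37 genes called with a positive contrast, blue points the 37 called with a negative one, and the dashed line marks equal effects. The red genes lie above the line along the vertical axis (Clec4e, C1qa) or to the left of it (Clec4b2, Dusp6), most blue genes lie at lower right, and 1 gene falls outside the axes.

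Some of the genes that rose in cDC2 act where phagocytes tag and engulf dying cells. C1qa and C1qb encode chains of complement component C1q, which coats apoptotic cells and immune complexes. C1qa read 135 and 157 in WT cDC2 and 790 and 569 in Flt3L KO cDC2, a 4.60-fold rise (adjusted p = 1.7e-05). In cDC1 it read 84.0 and 78.8 in WT and 82.4 and 88.0 without the ligand. Both Flt3L KO cDC2 arrays stood above all other arrays of the contrast, while the cDC1 groups overlapped. The contrast of C1qa was 2.14 ± 0.21 (SE, adjusted p = 0.00136).

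C1qb followed the same course, at 119 and 118 in WT cDC2 and 569 and 386 in Flt3L KO cDC2, against 65.4 and 71.1 and 71.0 and 60.4 in cDC1. Its contrast was 2.04 ± 0.26 (SE, adjusted p = 0.00626). The third chain gene, C1qc, read 84.0 and 80.5 in WT cDC2 and 339 and 192 in Flt3L KO cDC2, and its contrast of 1.36 ± 0.31 (SE, adjusted p = 0.0812) missed the threshold. Of the Flt3L KO cDC2 arrays, replicate 1 was the higher one for all 3 genes. Arrays of sorted cells hold a pool, so a larger number of cells of one kind and more RNA in each cell cannot be told apart here.

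Clec4e, the C-type lectin Mincle that senses dead cells and mycobacterial glycolipid, had the largest contrast of all called genes. Its values were 37.4 and 42.5 in WT cDC2, 258 and 141 in Flt3L KO cDC2, 17.5 and 20.5 in WT cDC1 and 19.5 and 16.3 in Flt3L KO cDC1. The cDC1 values lay under the lower quartiles of the arrays, where small differences are imprecise, and the cDC2 groups did not overlap. Clec4e rose 4.77-fold in cDC2 (adjusted p = 0.000178), and its contrast was 2.34 ± 0.29 (SE, adjusted p = 0.00626).

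Mertk, a receptor kinase for apoptotic cells, read 30.4 and 28.6 in WT cDC2 and 60.6 and 57.4 in Flt3L KO cDC2, a rise of 1.00 ± 0.08 (SE) in log2 intensity (adjusted p = 8.17e-05). In cDC1 it stayed between 26.5 and 29.6 on all 4 arrays. The contrast was 0.92 ± 0.12 (SE, adjusted p = 0.00626). Vcam1, an adhesion molecule of splenic macrophages, read 84.5 and 90.9 in WT cDC2 and 194 and 205 in Flt3L KO cDC2, a 2.27-fold rise. In cDC1 it read 165 and 157 in WT and 196 and 202 in Flt3L KO, so that the lower level of WT cDC2 was no longer seen without the ligand. The cDC1 effect of Vcam1 was 0.30 ± 0.08 (SE, adjusted p = 0.0782) and its contrast 0.88 ± 0.11 (SE, adjusted p = 0.00626).

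Lyz2, which encodes the lysozyme of macrophages and ESAM-low cDC2, read 716 and 735 in WT cDC2 and 1178 and 1259 in Flt3L KO cDC2, a 1.68-fold rise (adjusted p = 0.00141). In cDC1 it read 1211 and 1288 in WT and 1046 and 938 in Flt3L KO, a change of -0.33 ± 0.09 (SE, adjusted p = 0.0873). The order of the cell types thus turned: cDC1 was higher in WT and cDC2 was higher without the ligand. The contrast was 1.08 ± 0.13 (SE, adjusted p = 0.00621). Ms4a7, a membrane protein of macrophages, rose 1.83-fold in cDC2, from 58.7 and 62.8 to 119 and 104, and had a contrast of 1.38 ± 0.18 (SE, adjusted p = 0.00674). Pilra, an inhibitory receptor of myeloid cells, rose 2.22-fold in cDC2, and its contrast was 1.31 ± 0.22 (SE, adjusted p = 0.0216). Cd300e, an activating receptor of monocytes, read 131 and 141 in WT cDC2 but 431 and 210 in Flt3L KO cDC2, so the replicates were far apart. Its contrast of 1.74 ± 0.32 (SE, adjusted p = 0.0402) lost the call in 7 of 17 other settings.

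The 17 macrophage markers tested were read as a list. Of these, 4 had a called positive contrast (C1qa, C1qb, Vcam1 and Mertk) and 0 a negative one, beside 0.247% of all genes in each direction. The contrast was above 0 for 15 of the 17, with 9 positive and 1 negative at an unadjusted p under 0.05, and the median was 0.33, beside 0.03 over all genes. The summed intensity of the 19 list genes with a value was 4826 to 4955 in WT cDC2, 5834 to 6173 in Flt3L KO cDC2, 2921 to 2989 in WT cDC1 and 2737 to 2865 in Flt3L KO cDC1. The defining red pulp macrophage gene Cd5l was too dim to be tested, at 17.3 to 29.1 on all 12 arrays. Marco, Siglec1, Mrc1 and Cd163 read 22.8 to 65.8 on all 12 arrays, and their contrasts of 0.16 to 0.21 were not called. By limma, 7 of the 17 rose and 2 fell in cDC2, beside 1.95% of all genes changed there. In cDC1 0 rose and 1 fell, beside 1.19%. Timd4, a receptor for phosphatidylserine, was lower without the ligand in both cell types. It read 237 and 215 in WT cDC2 and 149 and 138 in Flt3L KO cDC2. In cDC1 it read 239 and 256 in WT and 131 and 133 in Flt3L KO, and its contrast was 0.25 ± 0.15 (SE, adjusted p = 0.456). Spic, the transcription factor of red pulp macrophages, had a contrast of 0.96 ± 0.30 (SE, adjusted p = 0.181). Adgre1, the F4/80 antigen, read 996 and 943 in WT cDC2 and 601 and 617 in Flt3L KO cDC2, lower without the ligand. Its contrast was -0.61 ± 0.14 (SE, adjusted p = 0.0817). Hmox1, the heme oxygenase of macrophages that clear red cells, read 117 and 130 in WT cDC2 and 189 and 215 in Flt3L KO cDC2, with a contrast of 1.03 ± 0.23 (SE, adjusted p = 0.0812). Axl, a receptor kinase related to Mertk, read 152 and 161 in WT cDC2 and 330 and 274 in Flt3L KO cDC2, with a contrast of 0.71 ± 0.22 (SE, adjusted p = 0.177). Slc40a1, the iron exporter, was too dim to be tested, at 20.9 and 17.5 in WT cDC2 and 39.5 and 37.6 in Flt3L KO cDC2. Of 10 monocyte markers tested, 2 were positive and called (Cd14 and Treml4), beside 0.247% of all genes, and 6 were positive and 0 negative at an unadjusted p under 0.05. The median was 0.35. Over the 15 monocyte list genes with a value, summed intensity was 12129 to 12369 in WT cDC2 and 12088 to 12714 in Flt3L KO cDC2. In cDC1 it was 13173 to 13821 in WT and 11188 to 12079 in Flt3L KO. Ace, which marks nonclassical monocytes, read 344 and 348 in WT cDC2 and 718 and 568 in Flt3L KO cDC2, with a contrast of 0.75 ± 0.21 (SE, adjusted p = 0.154). The monocyte genes Vcan, F13a1, Chil3, Ctsg and S100a8 were too dim to be tested, and Ccr2 had a contrast of -0.15 ± 0.25 (SE, adjusted p = 0.807). Whether other cells in the sort had a part in these results was not tested.

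Cd36, Pparg, Nr1h3 and Smpdl3b also had positive contrasts. Cd36, a scavenger receptor and fatty acid transporter that is abundant in cDC1, had the smallest adjusted p of the contrast. It read 1063 and 1112 in WT cDC1 and 712 and 808 in Flt3L KO cDC1, a change of -0.52 ± 0.10 (SE) in log2 intensity (adjusted p = 0.0381). In cDC2 it read 51.1 and 57.7 in WT and 143 and 124 in Flt3L KO, a 2.46-fold rise (adjusted p = 7.11e-05). The groups did not overlap in either cell type, and the changes were opposite. The contrast was 1.82 ± 0.15 (SE, adjusted p = 0.000317), and it was called in all 17 other settings.

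Pparg, a nuclear receptor for fatty acids that controls Cd36 in macrophages, read 53.1 and 56.0 in WT cDC2 and 158 and 95.4 in Flt3L KO cDC2. In cDC1 it read 57.9 and 56.0 in WT and 42.6 and 45.8 without the ligand, a change of -0.37 ± 0.17 (SE, adjusted p = 0.302). Its contrast was 1.54 ± 0.24 (SE, adjusted p = 0.0165). Nr1h3, which encodes the oxysterol receptor LXR alpha, rose 2.10-fold in cDC2, from 113 and 103 to 252 and 204. Its cDC1 values overlapped, at 59.5 and 59.0 and 59.7 and 71.3, and the contrast was 0.93 ± 0.15 (SE, adjusted p = 0.0208), which lost the call in 6 of 17 other settings. Smpdl3b, a membrane phosphodiesterase of the sphingomyelinase family, rose 2.28-fold in cDC2 and had a contrast of 1.52 ± 0.28 (SE, adjusted p = 0.0391), which lost the call in 8 of 17 other settings.

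Apoe, Plin2, Pla2g7, Pla2g2d, Selenop and Cfb were called too and were picked with their values known. Apoe, the apolipoprotein that carries cholesterol out of macrophages, read 423 and 414 in WT cDC2 and 780 and 653 in Flt3L KO cDC2, but 432 and 433 in WT cDC1 and 294 and 327 in Flt3L KO cDC1. Its contrast was 1.25 ± 0.17 (SE, adjusted p = 0.00693). WT levels were alike in the cell types and the Flt3L KO levels lay on either side of them, although the cDC1 change alone missed the threshold (adjusted p = 0.073). Plin2, a coat protein of lipid droplets, rose 2.38-fold in cDC2, from 199 and 211 to 599 and 399, with a contrast of 1.23 ± 0.22 (SE, adjusted p = 0.0306). The phospholipase genes Pla2g7 and Pla2g2d rose 1.57-fold and 1.62-fold in cDC2, with contrasts of 1.03 ± 0.17 (SE, adjusted p = 0.0216) and 0.89 ± 0.15 (SE, adjusted p = 0.0216). Selenop, the selenium carrier protein, rose 1.54-fold in cDC2, and Cfb, a complement protease subunit, 2.12-fold, while their cDC1 effects were 0.03 and 0.06 on the log2 scale.

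Promoters of the called genes were read for motifs. Sequences of RefSeq (GRCm38.p6) from 250 bases before to 50 after a gene's start were searched on both strands for GAGGAA, the purine-rich core recognised by ETS factors such as the myeloid factor encoded by Spi1, for AGGTCA, recognised by nuclear receptors, and for TGANTCA, recognised by Fos and Jun proteins. The motifs do not overlap one another in the sequences shown. The promoters of Clec4e (chr6:123289822-123290121, minus strand), C1qb (chr4:136886151-136886450, minus strand) and that of Cd36 (chr5:17835847-17836146, minus strand) are shown because these genes had some of the largest positive contrasts. They and the motifs were chosen after the values were seen. Capitals mark GAGGAA or its reverse complement in Clec4e and C1qb, and the reverse complement of AGGTCA in Cd36.
Clec4e: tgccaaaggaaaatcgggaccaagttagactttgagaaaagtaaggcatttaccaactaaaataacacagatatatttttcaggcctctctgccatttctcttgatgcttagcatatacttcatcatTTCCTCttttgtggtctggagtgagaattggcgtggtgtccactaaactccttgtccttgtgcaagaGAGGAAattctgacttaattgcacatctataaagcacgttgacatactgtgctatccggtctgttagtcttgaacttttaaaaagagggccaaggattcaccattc
C1qb: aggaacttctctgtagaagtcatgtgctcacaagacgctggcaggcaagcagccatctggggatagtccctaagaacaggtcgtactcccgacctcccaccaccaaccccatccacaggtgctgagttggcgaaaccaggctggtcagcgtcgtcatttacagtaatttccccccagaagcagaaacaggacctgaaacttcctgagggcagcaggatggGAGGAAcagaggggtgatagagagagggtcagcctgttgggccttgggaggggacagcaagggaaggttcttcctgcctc
Cd36: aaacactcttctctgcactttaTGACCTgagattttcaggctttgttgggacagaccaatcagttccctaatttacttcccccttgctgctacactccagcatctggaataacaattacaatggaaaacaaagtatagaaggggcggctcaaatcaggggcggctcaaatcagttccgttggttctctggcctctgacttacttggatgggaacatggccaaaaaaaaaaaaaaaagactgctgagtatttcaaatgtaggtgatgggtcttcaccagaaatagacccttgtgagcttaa
Clec4e held GAGGAA at 2 places and C1qb at 1, and Cd36 held AGGTCA at 1. Of the 37 positive genes 33 had a promoter in the table, and 20 of these (60.6%) held GAGGAA in at least 1 promoter. The same was true of 30.3% of the 11808 tested genes with a promoter and of 9 of 21 negative genes (42.9%). Counted per promoter, the shares were 53.2% of 47 for the positive genes and 32.1% of 28 for the negative genes. They were 26.8% of 14823 for the genes tested and 28.3% of all 32851 promoters. AGGTCA stood in 19.1% of the promoters of positive genes, 21.4% of those of negative genes, 13.5% of those of genes tested and 16.3% of all. In the same order, TGANTCA stood in 6.38%, 7.14%, 5.68% and 7.81%. These shares are descriptions, and no binding was measured.

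**Figure D2:**
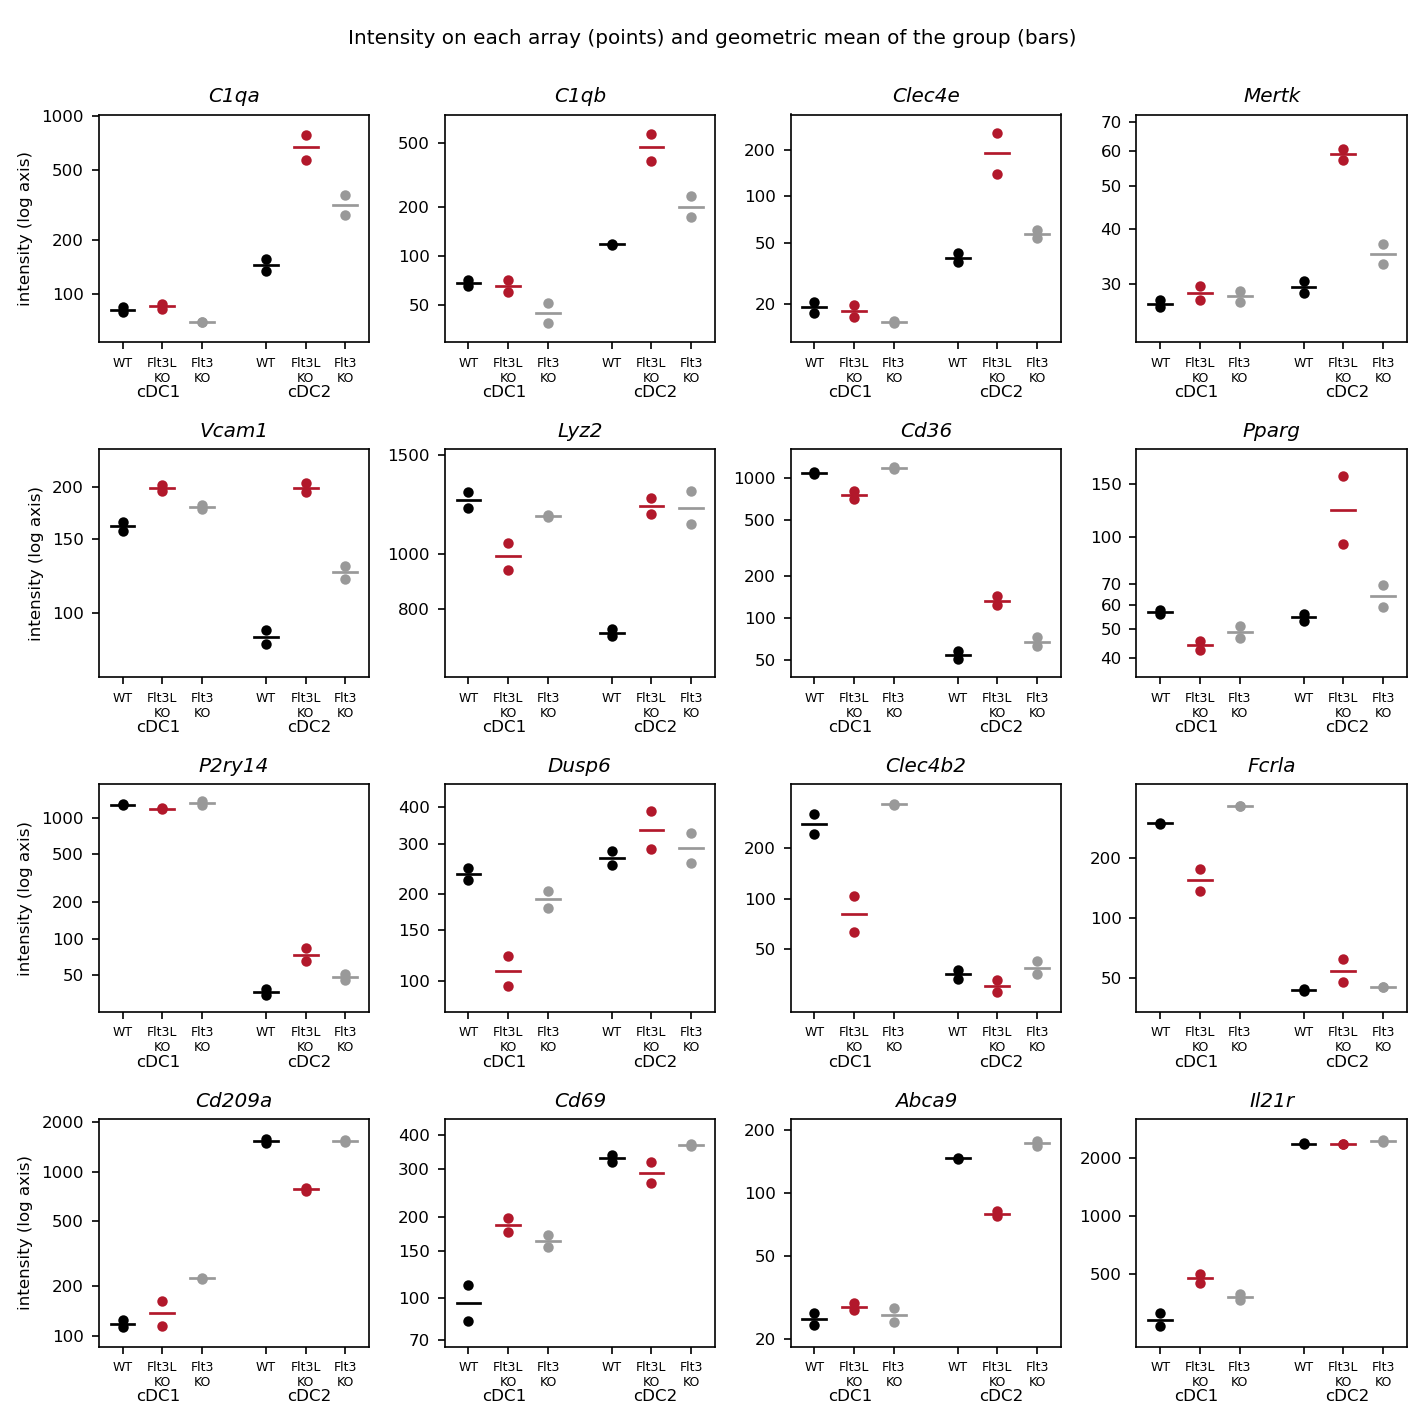
Intensity on each of the 12 arrays for 16 genes on a log axis, with points for single arrays and bars for the geometric mean of a group; black is WT, red Flt3L KO and grey Flt3 KO, with cDC1 at left and cDC2 at right of each panel. In the C1qa, C1qb, Clec4e and Mertk panels the red cDC2 points stand above every other point, and in the Clec4b2 and Fcrla panels the red cDC1 points stand below the black and grey cDC1 points.

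Among genes that were higher in cDC1 than in cDC2 in WT, a few rose in cDC2 when the ligand was absent. Of those given here, P2ry14 is in the cDC1 identity list, Treml4 in the monocyte list and Cd200 in the maturation list. P2ry14, a receptor for UDP-sugars, read 34.2 and 38.3 in WT cDC2 and 82.8 and 65.2 in Flt3L KO cDC2, a 2.03-fold rise (adjusted p = 0.000542). It remained far below the cDC1 arrays, at 1171 to 1284. Its contrast was 1.13 ± 0.15 (SE, adjusted p = 0.00693). Treml4, a receptor of cDC1 and some monocytes that binds dead cells, read 331 and 424 in WT cDC2 and 671 and 570 in Flt3L KO cDC2, against 1993 and 2074 and 1336 and 1617 in cDC1. Its contrast was 1.19 ± 0.22 (SE, adjusted p = 0.0405), lost in 7 of 17 other settings. Cd200, the ligand of an inhibitory myeloid receptor, rose 1.65-fold in cDC2, with a contrast of 0.62 ± 0.12 (SE, adjusted p = 0.0448) that lost the call in 12 of 17 other settings.

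The transcription factors at the centre of cDC1 identity did not pass. Irf8 read 311 and 275 in WT cDC2 and 431 and 409 in Flt3L KO cDC2, which was a called rise of 1.43-fold within cDC2, but its contrast of 0.43 ± 0.12 (SE, adjusted p = 0.142) was not called. Batf3 had a contrast of 0.27 ± 0.11 (SE, adjusted p = 0.280), Cd8a one of 0.27 ± 0.12 (SE, adjusted p = 0.300), Itgae one of 0.20 ± 0.17 (SE, adjusted p = 0.613) and Clec9a one of -0.05 ± 0.18 (SE, adjusted p = 0.922). Of 30 cDC1 identity genes tested, 2 had a called positive contrast (P2ry14 and Cd36) and 0 a negative one, with a median of 0.27. Over all genes 0.247% were called in each direction, with a median of 0.03.

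Chemokine and pattern receptor genes gave 1 called member each. Cxcl2, a neutrophil chemoattractant, read 79.3 and 75.4 in WT cDC2 and 126 and 142 in Flt3L KO cDC2, a 1.73-fold rise (adjusted p = 0.00964). In cDC1 it read 127 and 176 in WT and 94.4 and 110 in Flt3L KO, lower on both arrays without passing (adjusted p = 0.0665). The contrast was 1.34 ± 0.19 (SE, adjusted p = 0.00808). Cd14, a co-receptor for lipopolysaccharide, read 822 and 808 in WT cDC2, 955 and 1198 in Flt3L KO cDC2, 697 and 722 in WT cDC1 and 461 and 577 in Flt3L KO cDC1. Neither effect of Cd14 passed alone (adjusted p = 0.119 and 0.0757), while the contrast did, at 0.85 ± 0.16 (SE, adjusted p = 0.0448), and it lost the call in 8 of 17 other settings. Over 18 chemokine genes the median contrast was 0.26, and over 15 Toll-like receptor genes it was 0.16. Beside these stand 0.247% called positive and a median of 0.03 over all genes.

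Other positive contrasts came from falls in cDC1. Clec4b2, a C-type lectin, read 243 and 320 in WT cDC1 and 63.1 and 104 in Flt3L KO cDC1, a 3.44-fold fall (adjusted p = 0.00146). In cDC2 it was low on all 4 arrays, at 27.7 to 37.8. The contrast was 1.55 ± 0.28 (SE, adjusted p = 0.0332). It lost the call in 7 of 17 other settings.

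Dusp6, the phosphatase that switches off ERK and is itself induced by ERK signalling, read 225 and 247 in WT cDC1 and 122 and 96.6 in Flt3L KO cDC1. The effect of -1.12 ± 0.16 (SE) in log2 intensity passed (adjusted p = 0.00569). In cDC2 it read 253 and 283 in WT and 390 and 287 in Flt3L KO, with no called change (adjusted p = 0.368). The contrast was 1.44 ± 0.22 (SE, adjusted p = 0.0148). Of the 15 ERK feedback genes Dusp6 was the called one, beside 0.247% of all genes called positive. The median of the list was -0.02, beside 0.03 over all genes.

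Fcrla, an intracellular Fc receptor-like protein, read 296 and 299 in WT cDC1 and 136 and 175 in Flt3L KO cDC1, a 1.93-fold fall (adjusted p = 0.00409). In cDC2 it read 43.1 and 44.0 in WT and 61.7 and 47.4 in Flt3L KO (adjusted p = 0.272). Its contrast was 1.26 ± 0.18 (SE, adjusted p = 0.00866). Rtn1, a reticulon of the endoplasmic reticulum, fell 2.23-fold in cDC1, from 657 and 645 to 274 and 310, and had a contrast of 0.88 ± 0.13 (SE, adjusted p = 0.0115). Adgrf5, an adhesion receptor, fell 2.06-fold in cDC1, from 51.9 and 68.3 to 27.7 and 30.2, and Tgfbi, a matrix protein, fell 1.57-fold. Their contrasts were 1.12 ± 0.18 (SE, adjusted p = 0.0165) and 0.97 ± 0.15 (SE, adjusted p = 0.0165). Rtn1, Adgrf5 and Tgfbi were named after their values were seen.

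Negative contrasts that came mainly from cDC2 included lectin and membrane protein genes. Cd209a, the lectin DC-SIGN of ESAM-low cDC2, read 1587 and 1491 in WT cDC2 and 759 and 799 in Flt3L KO cDC2, a 1.98-fold fall (adjusted p = 0.00251). In cDC1 it read 124 and 113 in WT and 164 and 115 in Flt3L KO, so those groups overlapped. The contrast was -1.19 ± 0.18 (SE, adjusted p = 0.0133). The neighbouring family member Cd209b fell 1.45-fold in cDC2, from 76.0 and 69.2 to 50.5 and 49.5, with a contrast of -0.60 ± 0.11 (SE, adjusted p = 0.0448). Clec4a4, the cDC2 antigen DCIR2, read 332 and 387 in WT cDC2 and 221 and 222 in Flt3L KO cDC2, a called fall, but its contrast of -0.93 ± 0.19 (SE, adjusted p = 0.0547) missed the threshold. Its cDC1 values of 10.8 to 14.5 lay under the lower quartiles of the arrays.

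Cd101, an inhibitory surface protein, read 166 and 158 in WT cDC2 and 78.7 and 81.7 in Flt3L KO cDC2, a 2.02-fold fall (adjusted p = 0.000159). In cDC1 the 4 arrays lay between 35.8 and 43.3. Its contrast was -0.94 ± 0.13 (SE, adjusted p = 0.00693). Abca9, a lipid transporter of the ABC family, read 146 and 148 in WT cDC2 and 77.4 and 82.1 in Flt3L KO cDC2, and 23.4 to 29.6 on the cDC1 arrays. It fell 1.84-fold in cDC2, and the contrast was -1.07 ± 0.13 (SE, adjusted p = 0.00626). Cacna1e, a subunit of a voltage-gated calcium channel, fell 1.69-fold in cDC2 and had a contrast of -0.79 ± 0.14 (SE, adjusted p = 0.0391), lost in 8 of 17 other settings. Adamts6, a secreted metalloprotease, fell 1.45-fold, with a contrast of -0.78 ± 0.12 (SE, adjusted p = 0.0131). Adam19, a membrane metalloprotease of cDC, fell 1.26-fold in cDC2, and its contrast of -0.55 ± 0.11 (SE, adjusted p = 0.0479) lost the call in 12 of 17 other settings.

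Other negative contrasts came mainly from rises in cDC1. Adam11, a member of the ADAM family without protease activity, read 69.2 and 68.4 in WT cDC1 and 171 and 163 in Flt3L KO cDC1, a 2.43-fold rise (adjusted p = 1.57e-05). In cDC2 it rose less, 1.31-fold, from 340 and 337 to 445 and 439 (adjusted p = 0.0379). The groups were apart in both cell types, and the contrast was -0.90 ± 0.12 (SE, adjusted p = 0.00693). Cd69, an early activation antigen that holds cells in tissue, read 82.3 and 112 in WT cDC1 and 197 and 176 in Flt3L KO cDC1, a 1.94-fold rise. In cDC2 it read 320 and 340 in WT and 319 and 266 in Flt3L KO, with no called change (adjusted p = 0.595). Its contrast was -1.13 ± 0.19 (SE, adjusted p = 0.0214).

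Cytokine signalling genes of cDC2 were among those that rose in cDC1. Il21r, the receptor of interleukin-21, read 310 and 267 in WT cDC1 and 445 and 501 in Flt3L KO cDC1, a 1.64-fold rise (adjusted p = 0.00312). In cDC2 the 4 arrays lay between 2371 and 2392. The contrast was -0.72 ± 0.13 (SE, adjusted p = 0.0306), lost in 8 of 17 other settings. Stat4, the transducer of interleukin-12 signals, read 219 and 212 in WT cDC1 and 311 and 326 in Flt3L KO cDC1, against 1602 and 1665 and 1224 and 1453 in cDC2. It rose 1.48-fold in cDC1, and its contrast was -0.86 ± 0.15 (SE, adjusted p = 0.0296). Of 27 cytokine receptor genes Il21r was the called one, with a list median of -0.12. Of 21 STAT and SOCS genes Stat4 was the called one, with a list median of -0.11. Over all genes 0.247% were called negative, with a median of 0.03.

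The glucose transporter gene Slc2a3 rose 1.38-fold in cDC1, from 168 and 170 to 220 and 247, while cDC2 read 1388 and 1385 in WT and 1058 and 1137 in Flt3L KO (adjusted p = 0.0624). Its contrast was -0.80 ± 0.12 (SE, adjusted p = 0.0115). Slc2a3 was the called member of 20 glycolysis genes, whose median was -0.03, beside 0.247% called negative and a median of 0.03 over all genes. Ripor2, an inhibitor of the small GTPase RhoA, rose 1.41-fold in cDC1, with a contrast of -0.80 ± 0.12 (SE, adjusted p = 0.0148). For Gpr141, an orphan receptor, and Cdon, a co-receptor for hedgehog proteins, neither effect passed alone. Gpr141 read 54.4 and 59.4 in WT cDC1, 79.5 and 73.5 in Flt3L KO cDC1, 263 and 266 in WT cDC2 and 203 and 194 in Flt3L KO cDC2. Higher values in cDC1 and lower values in cDC2 added to a contrast of -0.84 ± 0.15 (SE, adjusted p = 0.0270), which lost the call in 7 of 17 other settings. The contrast of Cdon was -0.84 ± 0.16 (SE, adjusted p = 0.0475), and it lost the call in 11 of 17 other settings. Rgs12, a regulator of G protein signalling, and Plxdc1, a membrane receptor, rose in cDC1 (1.34-fold and 1.28-fold) and fell in cDC2 (1.26-fold and 1.32-fold).

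Gene lists placed these genes in their pathways. Of 37 cDC2 identity genes, 1 had a called negative contrast (Cd209a) and 0 a positive one, with a median of -0.15. Irf4, the transcription factor of cDC2, read 1057 and 1064 in WT cDC2 and 785 and 881 in Flt3L KO cDC2, and its contrast of -0.46 ± 0.17 (SE, adjusted p = 0.251) was not called. Esam had a contrast of -0.02 ± 0.14 (SE, adjusted p = 0.953) and Cd4 one of -0.08 ± 0.15 (SE, adjusted p = 0.823). Of 20 ESAM-low cDC2 genes, 2 were positive (Lyz2 and Ms4a7) and 1 negative (Cd209a), with a median of 0.08. Of 17 ESAM-high genes, 1 was positive (Clec4e), with a median of -0.02. Members of the ESAM-low list thus moved in both directions. Of 23 pan-cDC genes, 1 was negative (Adam19) and the median was -0.19. Zbtb46, the transcription factor common to cDC, had a contrast of -0.05 ± 0.17 (SE, adjusted p = 0.906). These counts stand beside a median of 0.03 and 0.247% called in each direction over all genes.

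Of 21 genes of apoptotic cell clearance, 4 were positive (Mertk, Cd36, C1qa and C1qb) and 0 negative, with a median of 0.17. Of 29 C-type lectin genes, 2 were positive (Clec4b2 and Clec4e) and 3 negative (Cd209a, Cd209b and Cd69), with a median of -0.03. Of 9 Fc receptor genes, 1 was positive (Fcrla), with a median of 0.33. Of 51 dendritic cell transcription factors Nr1h3 was the called one, of 36 maturation genes Cd200, and of 34 immediate early genes Cd69, with medians of -0.07, 0.01 and -0.03. The lists of MHC class I genes (18 tested), MHC class II genes (16), interferon-stimulated genes (32), lysosomal genes (28) and cytosolic ribosomal protein genes (31) held 0 called genes by limma, with medians of 0.01, -0.06, 0.07, 0.10 and -0.0016. At an unadjusted p under 0.05 they held 1, 1, 2, 6 and 0 genes, against 2220 of all 14953 genes tested. Over all genes 0.247% were called in each direction, and the median was 0.03. Lists of 16 to 32 genes with 0 called members lie near that share, so these zeros say little about the lists. Of the 3 Y-linked genes tested, 0 were called by limma and 0 had an unadjusted p under 0.05.

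**Figure D3:**
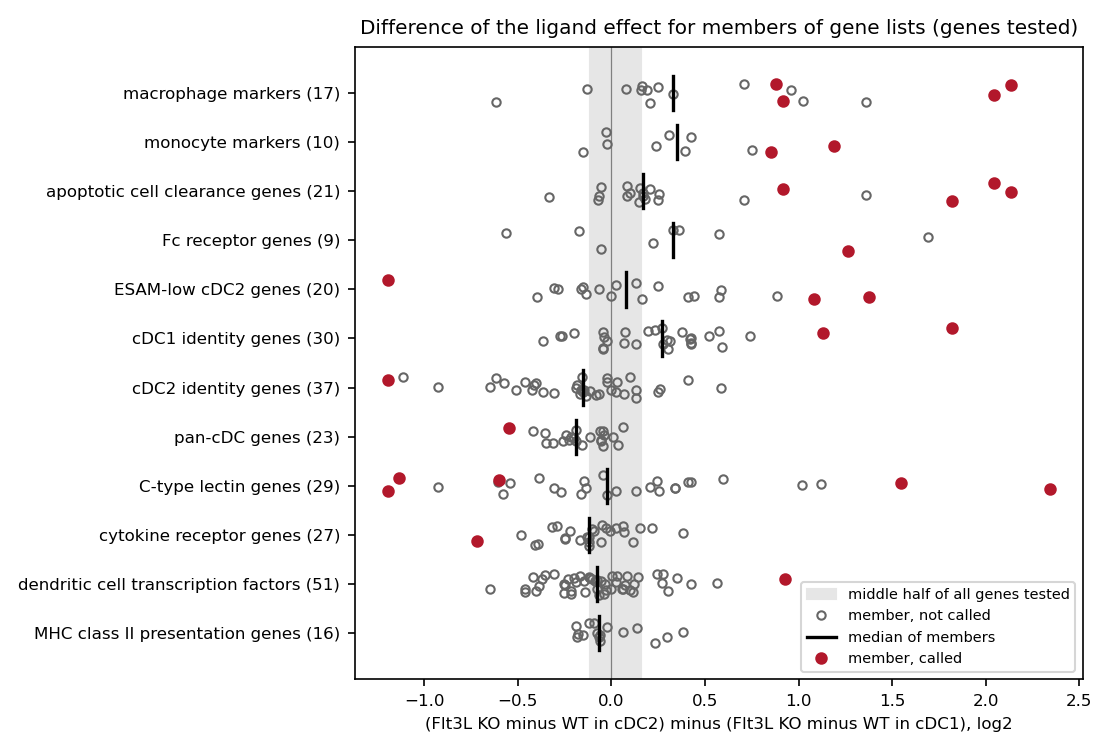
Contrast of the ligand effect (cDC2 minus cDC1, log2, horizontal axis) for the tested members of 12 gene lists, with open circles for members not called, red points for called members, black bars for the list medians and a grey band for the interquartile range of all genes tested (-0.12 to 0.16). The medians of the macrophage (0.33), monocyte (0.35), Fc receptor (0.33) and cDC1 identity (0.27) lists lie to the right of the band, and those of the cDC2 identity (-0.15) and pan-cDC (-0.19) lists to the left.

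The contrast was then set against the difference between the cell types in Flt3 KO mice, whose group means do not enter it. Genes called between Flt3 KO cDC2 and cDC1 with a difference over 2-fold were classed as cDC2-high (495 genes, 3.31% of those tested) or cDC1-high (420 genes, 2.81%). The median contrast was -0.14 for cDC2-high genes, 0.08 for cDC1-high genes and 0.03 for the other 14038 genes. Among cDC2-high genes 66.5% had a negative contrast, against 45.0% of all genes, and 18 (3.64%) were called negative and 9 (1.82%) called positive. Among cDC1-high genes 63.3% had a positive contrast, against 55.0% of all genes, and 11 (2.62%) were called positive and 3 (0.714%) negative. The background was 0.247% in each direction. Class and contrast came from the same fit, with 1 estimate of the variance per gene. A gene with a small estimate passes both thresholds more easily, so called shares above the background were favoured in advance and are not support. In cDC2-high genes the median effect was -0.04 in cDC2 and 0.09 in cDC1, and in cDC1-high genes it was 0.02 in cDC2 and -0.07 in cDC1. The median of the cDC1-high genes was 0.154 without WT cDC1 replicate 1 and 0.00778 without WT cDC1 replicate 2, so its size depended on these arrays. That of the cDC2-high genes was -0.12 to -0.16 when single arrays were left out.

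Loss of the receptor gave a contrast of its own on the Flt3 KO arrays, which shares the 4 WT arrays with that of the ligand. By limma it held 0 called genes, against 1342 at an unadjusted p under 0.05. It held 5 with a trended and robust variance prior, 170 without WT cDC1 replicate 2, and 1 without Flt3 KO cDC1 replicate 2. Within a cell type, receptor loss changed 16 of 14953 genes in cDC2 and 12 of 14953 in cDC1 by limma. The targeted gene Flt3 itself was among them in both (adjusted p = 3.17e-09 in cDC2 and 5.26e-10 in cDC1). The 16 genes in cDC2 included rises of C1qa (2.19-fold, adjusted p = 0.0107) and Lyz2 (1.67-fold, adjusted p = 0.00757). Vcam1 (1.43-fold, adjusted p = 0.0321) and Ms4a7 (1.71-fold, adjusted p = 0.0415) rose there too. The difference between the contrasts, in which the WT arrays cancel, was tested directly. It was called for 17 genes (0.114%), 11 more positive (0.0736%) and 6 more negative (0.0401%) for the ligand. The counts by array left out were 2 and 5 (Flt3 KO cDC1 replicates 1 and 2), 7 and 5 (Flt3 KO cDC2), 3 and 8 (Flt3L KO cDC1) and 4 and 29 (Flt3L KO cDC2).

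Cd36 showed this difference most clearly. It read 1194 and 1160 in Flt3 KO cDC1 and 72.9 and 63.2 in Flt3 KO cDC2, and its contrast was 0.21 ± 0.15 (SE) for the receptor against 1.82 ± 0.15 (SE) for the ligand, a difference of 1.61 ± 0.15 (SE, adjusted p = 0.00129). Abca9 read 169 and 177 in Flt3 KO cDC2, above WT rather than below it, and the difference was -1.26 ± 0.13 (SE, adjusted p = 0.00363). Fcrla read 365 and 362 in Flt3 KO cDC1 and differed by 1.50 ± 0.18 (SE, adjusted p = 0.00724), and Cxcl2 read 233 and 227 there and differed by 1.54 ± 0.19 (SE, adjusted p = 0.00724). Clec4b2, Cd101 and Mertk also passed, with differences of 1.82 ± 0.28, -0.89 ± 0.13 and 0.73 ± 0.12 (SE, adjusted p = 0.0448, 0.0278 and 0.0467).

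For other members the difference between the ligand and receptor contrasts was not called. C1qa read 363 and 280 in Flt3 KO cDC2, between WT and Flt3L KO, with a receptor contrast of 1.36 ± 0.21 (SE) and a difference of 0.78 ± 0.21 (SE, adjusted p = 0.244). Clec4e read 60.7 and 53.9 in Flt3 KO cDC2, and its difference was 1.50 ± 0.29 (SE, adjusted p = 0.107). Lyz2 read 1297 and 1129 in Flt3 KO cDC2, overlapping the Flt3L KO arrays, with a difference of 0.25 ± 0.13 (SE, adjusted p = 0.583). Gpr141 had a receptor contrast of -1.07 ± 0.15 (SE) and a ligand contrast of -0.84 ± 0.15 (SE), with a difference of 0.22 ± 0.15 (SE, adjusted p = 0.685). A p that misses the threshold does not show that the contrasts were equal.

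**Figure D4:**
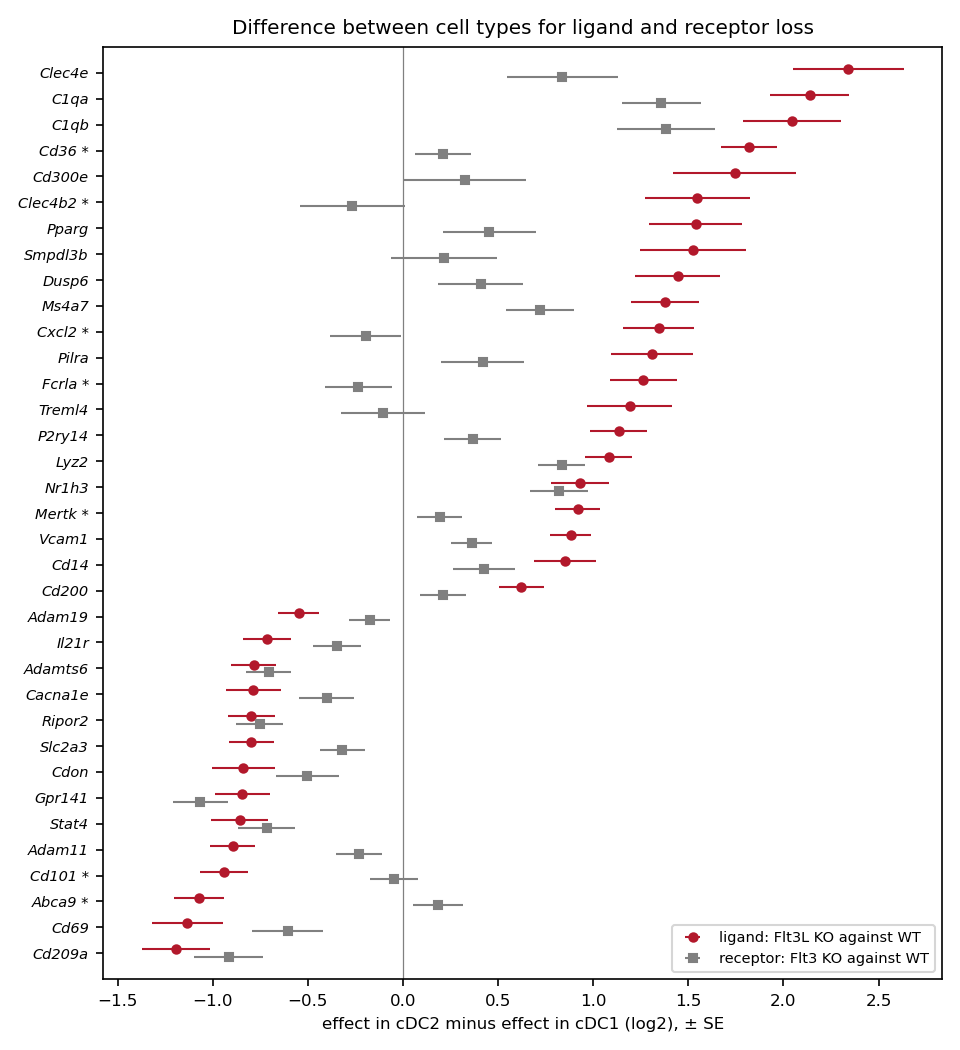
Contrast between the cell types (effect in cDC2 minus effect in cDC1, log2, horizontal axis) of ligand loss (red circles) and receptor loss (grey squares) for 35 named genes with a called ligand contrast, with bars for the standard error; both share the WT arrays, and an asterisk marks genes whose difference between the contrasts was called. The grey squares of Cd36, Clec4b2, Cxcl2, Fcrla and Abca9 lie near 0 while the red circles do not, and those of Lyz2, Nr1h3, Ripor2 and Gpr141 lie close to or beyond the red circles.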

How the data were processed

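RNA from mature cDC1 and cDC2 of WT, Flt3 KO and Flt3L KO spleens was measured on 12 arrays, 2 per group. Per the labels' protocols, spleens were digested with Collagenase B and DNAse 1 and RNA was prepared with the Ambion WT Expression and GeneChip WT Terminal Labeling kits. The deposited values are linear intensities, 1 per probe set and array, and were used as the authors deposited them. No source used here names the method of summarisation and normalization, and detection calls were not used, so differences of dim genes are imprecise.

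The table held 30177 probe sets. Those with 1 gene symbol in the platform annotation (21789) were kept, while 1621 with several and 6767 with none were left out. Symbols of 21698 were checked by Entrez ID against RefSeq, and 0 differed. Where a gene had several probe sets (999 genes), the brightest on average stood for it. Of 19938 genes, the dimmest share of 0.25 was left out, leaving 14953 with a mean log2 intensity of at least 4.78.

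Log2 intensities of all 12 arrays entered a model of 6 group means in limma 3.58.1 (R 4.3.3, statmod 1.5.0; 6 residual degrees of freedom), with Benjamini-Hochberg adjustment over all genes tested. Values are log2 differences ± SE. The fit was checked on simulated data. No source used here says whether equal replicate numbers pair the samples. Correlations of the difference between replicates 1 and 2 were 0.16, 0.09 and 0.15 between the cell types of WT, Flt3 KO and Flt3L KO. Between other groups they ran from -0.20 to 0.17, so they do not settle the pairing.

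Named genes are Flt3 and Flt3l; the 12 largest positive and negative contrasts among called genes that kept their sign without each array, leaving out predicted, small RNA and receptor segment genes; up to 4 called members of each list; and 12 cell type markers. Other genes given with values, such as C1qc, Cd209b, Rgs12, Plxdc1 and further marker genes of macrophages and monocytes, were picked outside it, with their values already seen. Of 965 genes in 47 lists, 796 were tested. The members, the rule and the lists were chosen with earlier results of these data known. Alternatives were quantile normalization, other filters on dim genes, a trended and robust prior, the mean of probe sets, array weights, only the arrays compared, replicate blocks and each array left out. Where a group is left with 1 array, that array is assumed to vary like the other groups. The block within genotype was added after the data were seen.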

Additional observations from a re-analysis of the deposited data

Results flagged for a closer look

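The effect of ligand loss differed between cDC2 and cDC1 for 74 genes by limma's test of the difference itself, and each gene below is listed for that reason. Among positive genes, log2 contrasts were 2.34 for Clec4e, 2.14 for C1qa, 2.04 for C1qb, 1.82 for Cd36, 1.74 for Cd300e, 1.54 for Pparg, 1.52 for Smpdl3b, 1.38 for Ms4a7, 1.31 for Pilra, 1.08 for Lyz2, 0.93 for Nr1h3, 0.92 for Mertk and 0.88 for Vcam1. For further positive genes they were 1.55 for Clec4b2, 1.44 for Dusp6, 1.34 for Cxcl2, 1.26 for Fcrla, 1.19 for Treml4, 1.13 for P2ry14, 0.85 for Cd14 and 0.62 for Cd200.

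Among negative genes, surface and secreted proteins gave contrasts of -1.19 for Cd209a, -1.13 for Cd69, -1.07 for Abca9, -0.94 for Cd101, -0.90 for Adam11, -0.84 for Gpr141, -0.84 for Cdon, -0.80 for Slc2a3, -0.79 for Cacna1e, -0.78 for Adamts6, -0.72 for Il21r and -0.55 for Adam19. Inside the cell, the values were -0.86 for Stat4 and -0.80 for Ripor2. Only 2 arrays stand behind each group mean, so no array could be tested as an outlier within its group.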

How the results depend on the processing

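None of the 35 named genes with a called contrast changed sign under the alternatives tried, while Esam, Clec9a, Cd4 and Zbtb46, near 0 and not called, did. Over the 49 named genes, 686 values under alternatives stayed on the same side of the threshold, 133 lost the call and 6 gained it. The 74 genes of the ligand contrast became 118 (45 positive and 73 negative) when the dimmest share of 0.5 was left out, 208 (79 and 129) with a trended and robust prior, 47 with array weights and 37 when only its arrays were fitted. Of the 74, these sets held 59, 74, 46 and 36. Left-out single arrays gave 20 to 484. The receptor contrast went from 0 to 5 with the trended and robust prior, and to 0 to 170 without single arrays. For the difference between the contrasts, 17 genes became 5 with quantile normalization, 7 with no filter, 42 with the trended and robust prior, 27 with array weights, 6 when only its arrays were fitted, and 2 to 29 without single arrays. In cDC2, 291 genes became 487 with the trended and robust prior, 529 with array weights and 72 to 164 without single arrays. In cDC1, 178 became 98 with no filter, 363 with a share of 0.5 left out, 545 with the trended and robust prior, 41 with array weights, 6 when only its arrays were fitted, and 25 to 606 without single arrays. With the replicate number as a block the counts were 63 for the ligand contrast, 0 for the receptor contrast and 8 for their difference. They were 259 in cDC2 and 118 in cDC1. Whether equal numbers pair these samples is not known. A replicate block within genotype, added after the data were seen, gave 68 for the ligand contrast, 52 of them among the 74. The causes of these shifts were not tested. Genes near the lower quartile of an array, such as Clec4e in cDC1, are measured imprecisely.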

Other observations

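Cell division and respiration genes leaned to positive contrasts without a called member. Of 44 cell cycle genes, 35 had a positive contrast and 9 a negative one, with a median of 0.19, against 55.0% positive and a median of 0.03 over all genes tested. The median effect of the list was 0.21 in cDC2 and 0.01 in cDC1. Birc5, a survivin that acts in mitosis, had a contrast of 0.64 ± 0.16 (SE, adjusted p = 0.102), and Cdc25c, a mitotic phosphatase, one of 0.60 ± 0.16 (SE, adjusted p = 0.130). At an unadjusted p under 0.05 limma gave 7 positive cell cycle genes and 0 negative ones, against 1106 positive of the 14953 genes tested. Of 40 oxidative phosphorylation genes, 35 were positive and 5 negative, with a median of 0.14, and 5 positive genes, 0 negative, had an unadjusted p under 0.05. The median effect of that list was 0.06 in cDC2 and -0.11 in cDC1. Summed cell cycle intensities overlapped in cDC2, at 16335.1 to 17454.9 in WT and 17450.5 to 19233.6 in Flt3L KO. Those of oxidative phosphorylation overlapped in cDC1, at 44765.7 to 47833.1 in WT and 43089.3 to 44798.9 in Flt3L KO. Members of a list can vary together, so the counts of positive genes are not counts of independent genes. Birc5 and Cdc25c were chosen after their values were seen.

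Small nucleolar RNA genes stood among the negative calls and are named after their values were seen. They were not read as a list, so no share of such genes stands beside the 0.247% of all genes called negative. Snord73b read 80.9 and 120 in WT cDC2, 63.4 and 52.2 in Flt3L KO cDC2, 35.9 and 49.7 in WT cDC1 and 81.5 and 66.9 in Flt3L KO cDC1, with a contrast of -1.58 ± 0.26 (SE, adjusted p = 0.0208). Snord61, Snord49b and Snord15b had contrasts of -0.95 ± 0.19, -0.74 ± 0.14 and -0.67 ± 0.12 (SE, adjusted p = 0.0479, 0.0436 and 0.0352).

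The Flt3L KO cDC2 replicates differed over the 37 positive genes. Replicate 1 was the higher array for 26 of them, with a median log2 difference of 0.21, against 0.004 over all genes tested. In Flt3 KO cDC2 replicate 1 was the higher array for 27, with a median of 0.10. The part of this spread in the contrasts was not tested.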
